A study of Mus musculus with 12 samples.

Results

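The 44 collagen genes of the mouse, each coding for 1 alpha chain, were described in kidney cortex RNA. They were taken as the protein-coding rows of the count table whose symbol has the form Col, a type number, a and a chain number, and they are 44 of 55487 genes. They divide into 11 fibrillar chains, 6 chains of type IV collagen (the basement membrane collagen) and 27 others. Bulk RNA-seq was done on 12 libraries in 4 groups of 3, all from mice that carry floxed alleles of Gfer, the gene of augmenter of liver regeneration (ALR), on a C57BL/6 background at 6 to 8 weeks of age. Ctrl mice are ALR flox/flox without Cre and had a sham operation, and PT-KO mice are ALR flox/flox with Ggt1-Cre, which deletes in the proximal tubule, also after sham. Ctrl+I/R and PT-KO+I/R mice of the same genotypes had 22 min of ischemia and 24 h of reperfusion, and their kidneys are called injured below. The labels call the genotypes WT and ALR knockdown. The comparisons ask how the collagens respond to ischemia-reperfusion (I/R) and whether loss of ALR in the proximal tubule changes that response.

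Collagens are the triple-helical proteins of the extracellular matrix. Fibrillar types I, III and V form the interstitial fibres that accumulate in a scarred kidney and are made chiefly by fibroblasts and pericytes. Type IV forms the sheet of the basement membrane: the chains of Col4a1 and Col4a2 lie under every tubule and vessel, whereas those of Col4a3, Col4a4 and Col4a5 form the network of the mature glomerular filter and are mutated in Alport syndrome. The remaining types decorate fibrils (FACIT types such as XII and XIV), form beaded filaments (type VI), span the cell membrane (XIII, XVII, XXIII) or sit beside basement membranes (the multiplexins XV and XVIII).

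Library totals ran from 12165089 to 23123693 counts, and the collagen genes took 0.132% to 0.328% of them. Ctrl library 3 has its group, but no replicate number, from its column name. Ctrl libraries 1 and 2 held 22402 and 19755 counts of Xist and 0 counts of Y-linked genes, whereas the other 10 libraries held at most 11 Xist counts and at least 3109 Y-linked counts. The comparisons with Ctrl therefore mix sexes, and those among the other 3 groups do not. Gfer itself stood at 11.4 to 14.4 CPM (counts scaled to the library size) in Ctrl, at least 15.3 in Ctrl+I/R, 9.97 to 17.1 in PT-KO and 21.6 to 22.8 in PT-KO+I/R. As groups, the libraries labelled as knockout were thus not lower, although PT-KO library 1 (9.97) lay below every Ctrl library. The count of Gfer covers the whole gene, of which only part is floxed, in tissue of many cell types. The group names below are those of the labels. In bulk RNA fewer cells of a type and less RNA per cell cannot be told apart.

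Per kilobase of exon, Col4a1, Col4a2, Col4a3, Col4a4 and Col18a1 were among the 6 most abundant collagen transcripts in every group. In Ctrl the order of mean levels was Col4a3 (48.8 CPM per kb), Col4a1 (40.0), Col4a2 (32.0), Col4a4 (31.1), Col18a1 (20.2) and Col4a5 (14.7), followed by Col27a1 at 6.93. Among these neighbours only Col4a2 and Col4a4 overlapped between libraries. From Col27a1 down through Col5a2, Col14a1, Col3a1 and Col1a2 to Col15a1 (4.15 CPM per kb) each gene overlapped with the next. In PT-KO+I/R the order was Col4a1 (115.2 CPM per kb), Col4a2 (83.7), Col18a1 (55.5) and, well below, Col4a3 (14.2) and Col4a4 (13.1), and only that last pair overlapped. The genes at the other end were near the limit of detection: 12 members were tested in no comparison and never exceeded 19 counts in a library, among them the cartilage chains Col2a1, Col9a1, Col9a2, Col9a3, Col10a1 and Col11a1. The other 6 were Col6a4, Col6a5, Col8a2, Col22a1, Col25a1 and Col28a1. A further 5 (Col6a6, Col11a2, Col17a1, Col19a1 and Col24a1) were tested in only some comparisons, and 27 in all 5.

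**Figure D1:**
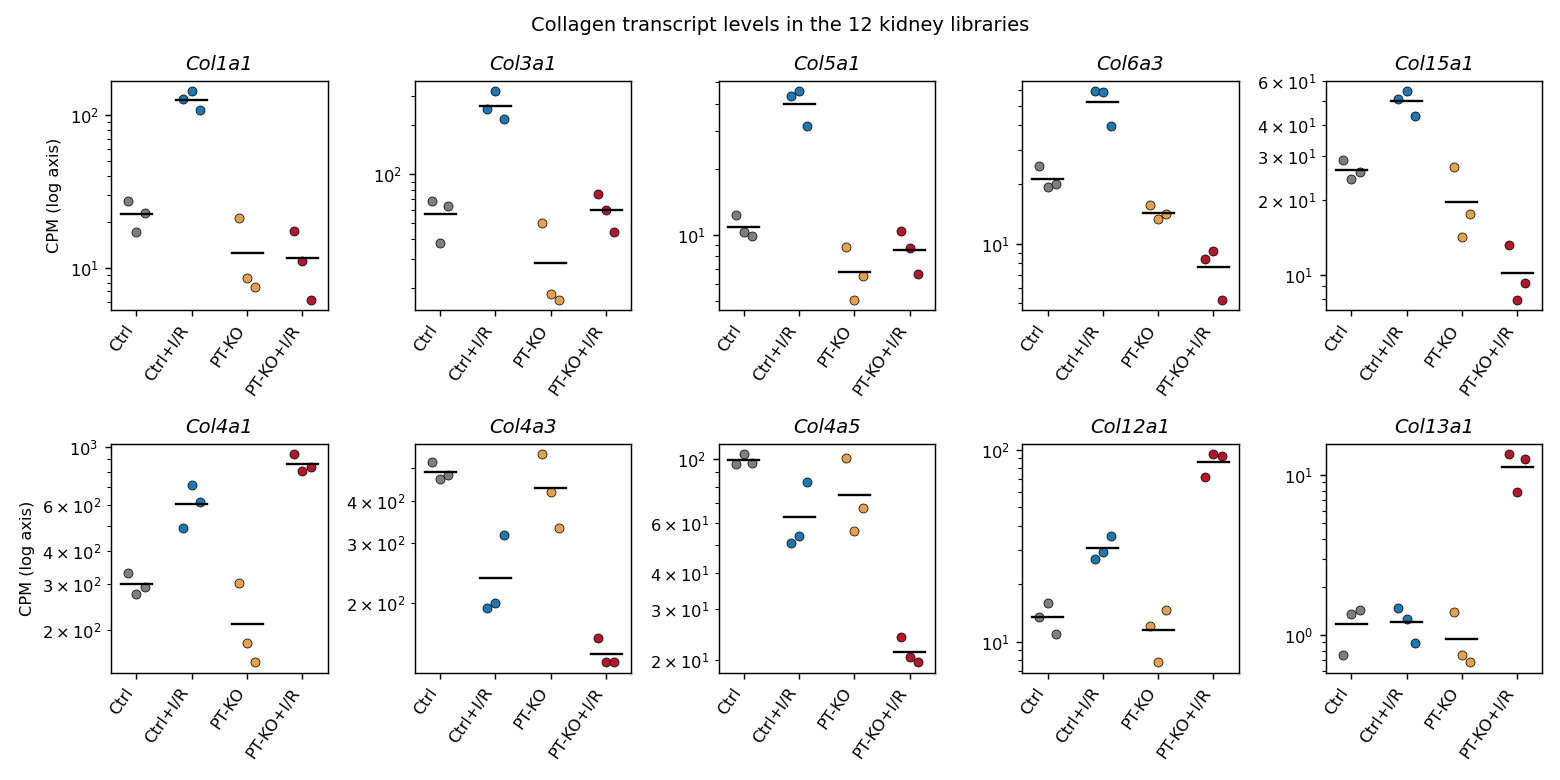
CPM (log axis, scale set per gene) of 10 collagen genes in the 12 libraries; each point is a library and each line the mean of 3. Col1a1, Col3a1, Col5a1, Col6a3 and Col15a1 stand highest in Ctrl+I/R, whereas Col4a1, Col12a1 and Col13a1 stand highest in PT-KO+I/R and Col4a3 and Col4a5 lowest there.

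After I/R in Ctrl mice, 16 of 30 members tested changed by edgeR's quasi-likelihood test at an adjusted p under 0.05, 12 higher and 4 lower. Of all 15567 genes tested 19.4% changed, 11.4% higher and 7.97% lower; the members' median log2 fold change was 0.53, and that of all genes -0.01. In PT-KO mice I/R changed 19 of 29 members, 6 higher and 13 lower, beside 65.5% of 15155 genes (32.9% and 32.7%), which is the same share; here the members' median was -0.58 and that of all genes 0.01. Between the 2 I/R groups, 22 of 29 members differed, 5 higher and 17 lower in the knockout, beside 46.9% of 15281 genes (22.5% and 24.4%), with medians of -1.19 and -0.0049. The interaction, which tests whether the I/R response differs between genotypes, called 15 of 32 members, 5 with a higher and 10 with a lower response in PT-KO, beside 30.6% of 16168 genes (14.3% and 16.4%). Without I/R, PT-KO against Ctrl called 0 of 30 members and 0.00% of 15291 genes by edgeR, whereas 9 members and 2573 genes had an unadjusted p under 0.05 and DESeq2 called 5 members and 2.81% of genes. The comparisons share groups of libraries, so their counts are not independent. Under total-count scaling in place of TMM (trimmed mean of M values) the median of all genes moved to -0.21 between the I/R groups, and the split there became 2 higher and 18 lower, while in Ctrl after I/R it became 13 and 1 with a median of 0.11, and for the interaction 3 and 11 with a median of -0.10. The calls over all genes shifted the same way, to 1978 higher and 5080 lower, 2346 and 766, and 1591 and 2997. With sex as a term, Ctrl+I/R against Ctrl rested on 1 male control, and 0 members and 1 gene of all were called. The log2 fold changes of the 16 members kept their sign and were 0.784 to 1.35 times those without the term (median 1.02), as for Col1a1 (2.45 and 2.49). Of the 16 members, 7 stayed called without Ctrl library 1 and 7 without Ctrl library 2, beside 2.39% and 2.56% of all genes.

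**Figure D2:**
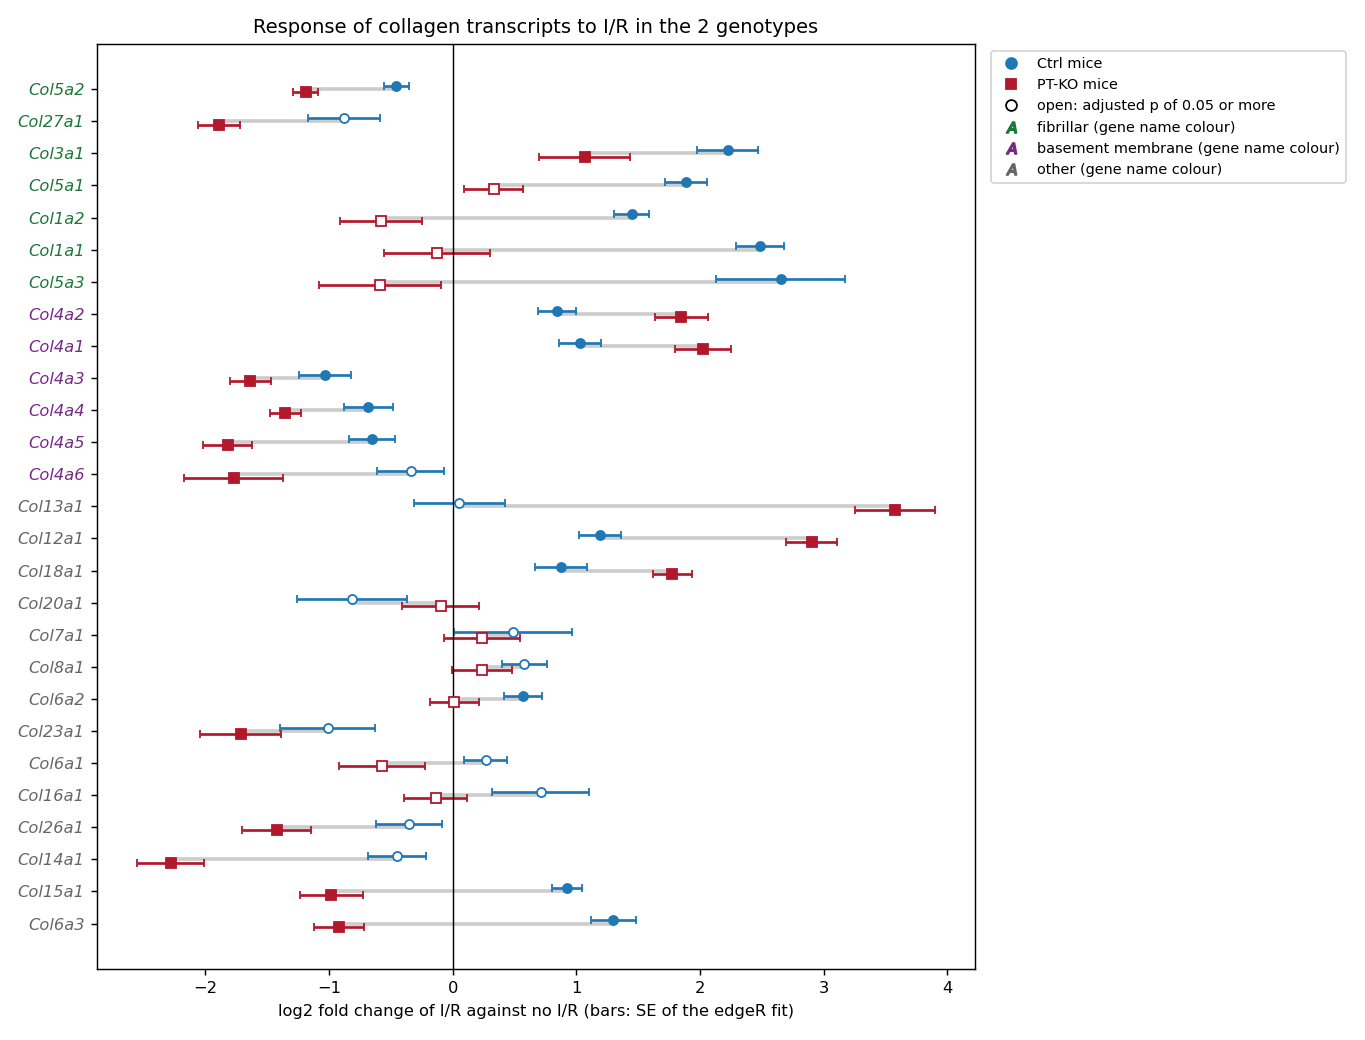
Log2 fold change of I/R against no I/R in Ctrl (circles) and PT-KO (squares) mice for 27 collagen genes tested in both (Col6a6 is left out), with the standard error (SE) of the edgeR fit; filled symbols passed an adjusted p of 0.05. Col1a1, Col1a2, Col5a1 and Col5a3 rose only among the filled circles, Col12a1, Col4a1, Col4a2 and Col18a1 rose in both, and Col13a1 stands at 0.05 in Ctrl and 3.57 in PT-KO.

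The type I and III chains, which build the main interstitial fibres, were high in 1 group alone. Col1a1, the first chain of type I collagen, stood at 27.3, 17.1 and 23 CPM in Ctrl and at 127.1, 142.5 and 107.5 CPM in Ctrl+I/R. The PT-KO libraries had 21.2, 8.56 and 7.49 CPM, and those of PT-KO+I/R 17.3, 11.1 and 6.19 CPM. All Ctrl+I/R libraries lay above every other library, and the PT-KO and PT-KO+I/R libraries overlapped. Col1a1 rose 5.60-fold with I/R in Ctrl (log2 2.49 ± 0.19, SE, adjusted p = 0.00231) and was 11.1-fold lower in injured PT-KO than in injured Ctrl kidneys (log2 -3.47 ± 0.32, adjusted p = 0.000295). In PT-KO its I/R log2 fold change was -0.13 ± 0.43 (adjusted p = 0.808), a value that turned positive without PT-KO library 1 (0.50), and the interaction was -2.60 ± 0.54 (adjusted p = 0.00428).

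Col1a2, the partner chain of type I, had the same order. It stood at 64.4, 48.3 and 61.5 CPM in Ctrl, 159.0, 169.0 and 144.7 in Ctrl+I/R, against 55.7, 31.0 and 34.8 in PT-KO and 44.6, 21.1 and 17.2 in PT-KO+I/R. It rose 2.72-fold with I/R in Ctrl (adjusted p = 0.00268) and was 5.79-fold lower in injured PT-KO than in injured Ctrl kidneys (adjusted p = 0.000838), with an interaction of -2.0 ± 0.43 (adjusted p = 0.00492). In PT-KO its I/R log2 fold change was -0.58 ± 0.33 (adjusted p = 0.147), and -1.07 to -0.28 when libraries were left out. It was called lower there with no low-count filter and without PT-KO+I/R library 2.

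Col3a1, the single chain of type III collagen, departed from type I in the knockout. Its levels were 68.2, 37.9 and 63.5 CPM in Ctrl, 249.5, 320.8 and 218.8 in Ctrl+I/R, against 49.98, 18.5 and 17.0 in PT-KO and 75.6, 60.1 and 44.3 in PT-KO+I/R. PT-KO library 1 stood above the other 2 and overlapped with PT-KO+I/R. Col3a1 rose 4.67-fold with I/R in Ctrl (adjusted p = 0.00440) and 2.09-fold in PT-KO (log2 1.07 ± 0.37, adjusted p = 0.0262), but the call in PT-KO was lost with DESeq2 and in 4 of 6 fits that left out a library, PT-KO library 2 or 4 or PT-KO+I/R library 2 or 3; the 6 values ran from log2 0.80 to 1.74. It was 4.404-fold lower in injured PT-KO than in injured Ctrl kidneys (adjusted p = 0.000378), and its interaction of -1.14 ± 0.52 missed the threshold (adjusted p = 0.116). That interaction ran from -1.41 to -0.46 over the 12 fits that left out a library, and was called with no low-count filter.

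The type V chains regulate the width of type I fibrils, and the 3 of them did not move alike. Col5a1 stood at 12.4, 10.3 and 9.92 CPM in Ctrl, 43.1, 45.4 and 31.4 in Ctrl+I/R, against 8.77, 5.06 and 6.50 in PT-KO and 10.4, 8.68 and 6.64 in PT-KO+I/R. The Ctrl+I/R libraries stood above all others: Col5a1 rose 3.69-fold with I/R in Ctrl (adjusted p = 0.00260), had an I/R log2 fold change of 0.33 ± 0.24 in PT-KO (adjusted p = 0.246), and was 4.70-fold lower in injured PT-KO than in injured Ctrl kidneys (adjusted p = 0.000280). Col5a3 was scarce, at 0.55 to 1.94 CPM in Ctrl, 3.98 to 11.4 in Ctrl+I/R, 1.23 to 2.90 in PT-KO and 0.45 to 1.71 in PT-KO+I/R. It rose 6.28-fold in Ctrl (adjusted p = 0.0195), a call lost in 3 of the 6 fits that left out a library, and was 6.38-fold lower in injured PT-KO than in injured Ctrl kidneys (adjusted p = 0.00471).

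Col5a2 went the other way. It stood at 62.6, 57.8 and 60.4 CPM in Ctrl, 45.9, 39.8 and 45.5 in Ctrl+I/R, against 47.0, 43.2 and 40.5 in PT-KO and 20.3, 18.4 and 19.0 in PT-KO+I/R, with little spread within groups. It fell 1.37-fold with I/R in Ctrl (adjusted p = 0.0265, lost in 5 of 6 fits that left out a library), fell 2.28-fold in PT-KO (adjusted p = 4.7e-06) and was 2.29-fold lower in injured PT-KO than in injured Ctrl kidneys (adjusted p = 0.000303), with an interaction of -0.72 ± 0.13 (adjusted p = 0.00156). Col5a2 is the neighbour of Col3a1 on chromosome 1, the 2 genes facing each other tail to tail with 24614 bases between them, and in Ctrl after I/R the first fell while the second rose.

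Of the fibrillar chains outside types I, III and V, Col27a1 was the most abundant, at 76.8 to 98.1 CPM in Ctrl, 27.4 to 63.3 in Ctrl+I/R, 92.3 to 130.4 in PT-KO and 22.6 to 33.1 in PT-KO+I/R. It fell 3.71-fold with I/R in PT-KO (adjusted p = 6.1e-06). In Ctrl its log2 fold change was -0.88 ± 0.29 with no overlap between groups (adjusted p = 0.0698, with DESeq2 0.0178). Its interaction was -0.99 ± 0.37 (adjusted p = 0.0583), called with DESeq2, with no low-count filter and without Ctrl+I/R library 2. Between the I/R groups it was at -0.75 ± 0.30 (adjusted p = 0.0712). That was called under the same alternatives, under total-count scaling and in 1 fit to all 12 libraries. Col24a1 stayed at or below 1.70 CPM and Col11a2 at or below 0.90 CPM in every library. Over the 8 fibrillar chains tested between the I/R groups, 6 were lower and 0 higher in PT-KO+I/R, beside 24.4% and 22.5% of all genes, and the median log2 fold change was -2.19.

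**Figure D3:**
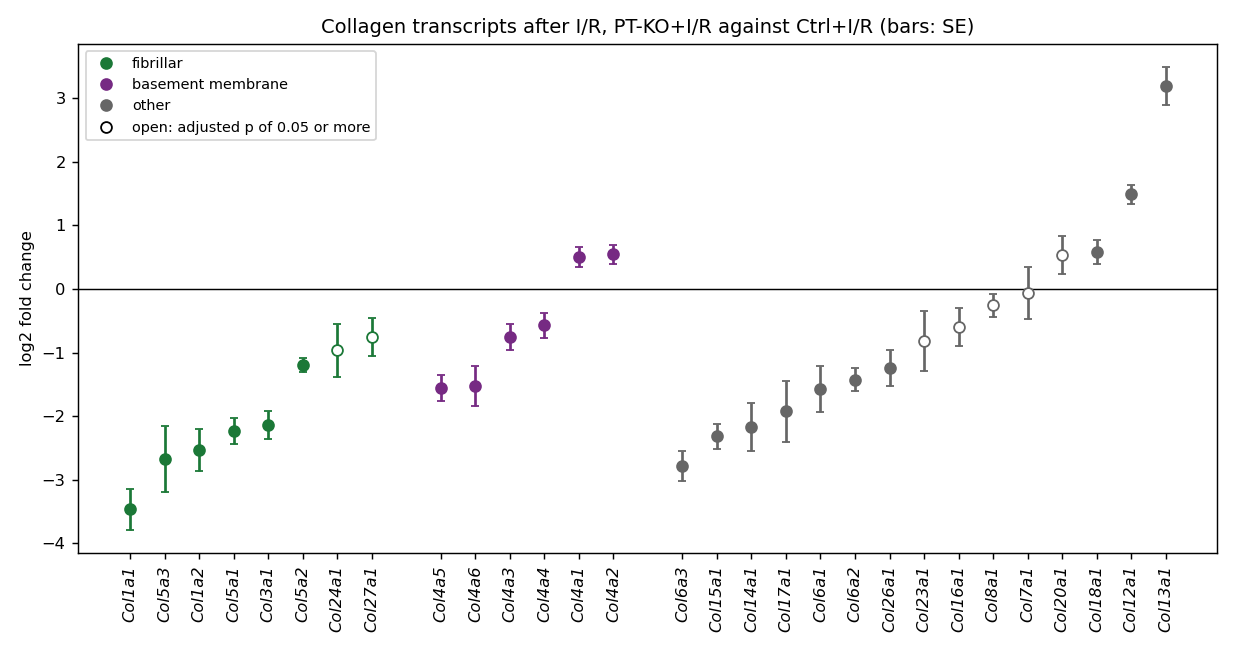
Log2 fold change (SE bars) of the 29 collagen genes tested between injured PT-KO and injured Ctrl kidneys, ordered within class; filled points passed an adjusted p of 0.05. All 8 fibrillar values lie below 0, whereas the type IV chains split into 2 above and 4 below, and Col13a1 (3.19) and Col12a1 (1.49) stand highest among the other types.

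Type IV collagen split into the ubiquitous pair and the glomerular set. The 6 genes lie in head-to-head pairs: Col4a1 and Col4a2 on chromosome 8, Col4a3 and Col4a4 on chromosome 1, and Col4a5 and Col4a6 on the X chromosome, the last pair with 1308 bases between their starts. The GENCODE starts of Col4a1 and Col4a2 overlap by 22 bases, chr8:11312805-11312826, and those of Col4a3 and Col4a4 leave 71 bases between them, chr1:82586850-82586920. Both segments are shown because the members of each pair moved together. The letters were read from RefSeq promoter sequences on GRCm38.p6, the first on the plus strand and the second on the minus strand, which is that of Col4a4, with GGGCGG, the core of the GC box that Sp1-type factors recognise, in capitals.
Col4a1 and Col4a2 overlap: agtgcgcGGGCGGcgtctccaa
Col4a3 and Col4a4 gap: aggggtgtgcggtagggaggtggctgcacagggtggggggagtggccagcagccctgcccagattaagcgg
The first segment holds GGGCGG and the second does not.

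Col4a1 stood at 331, 274 and 291 CPM in Ctrl, 491, 713 and 618 in Ctrl+I/R, against 303, 179 and 150 in PT-KO and 938, 807 and 835 in PT-KO+I/R. The 2 I/R groups lay above both groups without I/R, and PT-KO+I/R lay above Ctrl+I/R in every library. Col4a1 rose 2.04-fold with I/R in Ctrl (adjusted p = 0.0123) and 4.06-fold in PT-KO (log2 2.02 ± 0.23, adjusted p = 3.1e-05). It was 1.41-fold higher in injured PT-KO than in injured Ctrl kidneys (log2 0.50 ± 0.16, adjusted p = 0.0319), a call lost in 5 of the 6 fits that left out a library (all but that without Ctrl+I/R library 2) and under total-count scaling (log2 0.29 ± 0.17, adjusted p = 0.194).

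Col4a2 followed Col4a1, at 196 to 221 CPM in Ctrl, 305 to 423 in Ctrl+I/R, 110 to 217 in PT-KO and 534 to 594 in PT-KO+I/R. It rose 1.79-fold with I/R in Ctrl and 3.60-fold in PT-KO (adjusted p = 0.0152 and 4.0e-05) and was 1.46-fold higher in injured PT-KO than in injured Ctrl kidneys (adjusted p = 0.0172; under total-count scaling log2 0.34 ± 0.16, adjusted p = 0.110). The count of Col4a1 was 1.32 to 1.68 times that of Col4a2 in all 12 libraries. The interaction was 1.0 ± 0.32 for Col4a1 and 1.02 ± 0.30 for Col4a2 (adjusted p = 0.0309 and 0.0227), and with sex as a term neither passed (0.97 and 1.08, adjusted p = 0.0970 and 0.0550). Of the 12 fits that left out a library, 6 lost the interaction of Col4a1 and 2 that of Col4a2 (without Ctrl+I/R library 1 or PT-KO library 2), and total-count scaling lost that of Col4a1 (adjusted p = 0.0586). The I/R calls of both genes in Ctrl were lost without Ctrl library 1 or 2, and the higher Col4a2 level between the I/R groups without Ctrl+I/R library 1 or PT-KO+I/R library 2.

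Col4a3 stood at 520, 463 and 476 CPM in Ctrl, 193, 200 and 318 in Ctrl+I/R, against 550, 426 and 334 in PT-KO and 157, 133 and 133 in PT-KO+I/R. Levels in both I/R groups were lower, with no overlap with the groups without I/R, and Ctrl+I/R library 4 lay above the other 2 of its group. Col4a3 fell 2.04-fold with I/R in Ctrl (adjusted p = 0.0210, lost in 3 of 6 fits that left out a library) and 3.11-fold in PT-KO (adjusted p = 1.6e-05). It was 1.69-fold lower in injured PT-KO than in injured Ctrl kidneys (adjusted p = 0.0173, lost without PT-KO+I/R library 3 or 4), and its interaction was -0.59 ± 0.29 (adjusted p = 0.142).

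Col4a4 fell 1.60-fold with I/R in Ctrl (adjusted p = 0.0494) and 2.55-fold in PT-KO (adjusted p = 7.7e-06), from 308 to 358 CPM in Ctrl and 302 to 398 in PT-KO to 165 to 268 in Ctrl+I/R and 128 to 157 in PT-KO+I/R. The call in Ctrl, and that of 1.49-fold lower in injured PT-KO than in injured Ctrl kidneys (adjusted p = 0.0407), were each lost in 5 of 6 fits that left out a library. Col4a5 stood at 95.6 to 103.8 CPM in Ctrl, 51.0 to 82.98 in Ctrl+I/R, 56.0 to 100.9 in PT-KO and 19.6 to 24.0 in PT-KO+I/R. It was 2.95-fold lower in injured PT-KO than in injured Ctrl kidneys (adjusted p = 0.000861), and its interaction was called (-1.15 ± 0.30, adjusted p = 0.0144; with sex as a term -1.18, adjusted p = 0.0540), as was that of Col4a4 with DESeq2, under total-count scaling (-0.75, adjusted p = 0.0341), with no low-count filter and without Ctrl+I/R library 2. Col4a6, which pairs with Col4a5 chains in other basement membranes, was low, at 1.16 to 6.37 CPM, and was lower in PT-KO+I/R than in PT-KO and in Ctrl+I/R (log2 -1.77 ± 0.40 and -1.53 ± 0.32; adjusted p = 0.00305 and 0.00636).

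Within a library, ratios of counts do not depend on scaling between libraries; they were chosen after their values were seen and are given without a test. The counts of Col4a1 and Col4a2 together were 0.538 to 0.583 times those of Col4a3, Col4a4 and Col4a5 together in Ctrl, 0.370 to 0.496 in PT-KO, 1.53 to 2.71 in Ctrl+I/R and 4.53 to 4.82 in PT-KO+I/R. No 2 of these groups overlapped. The count of Col3a1 was 1.96 to 2.76 times that of Col1a1 in the 9 libraries of the other groups and 4.38, 5.40 and 7.16 times it in PT-KO+I/R. The count of Col1a1 was 0.743 to 0.843 times that of Col1a2 in Ctrl+I/R and 0.215 to 0.529 times it elsewhere.

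**Figure D4:**
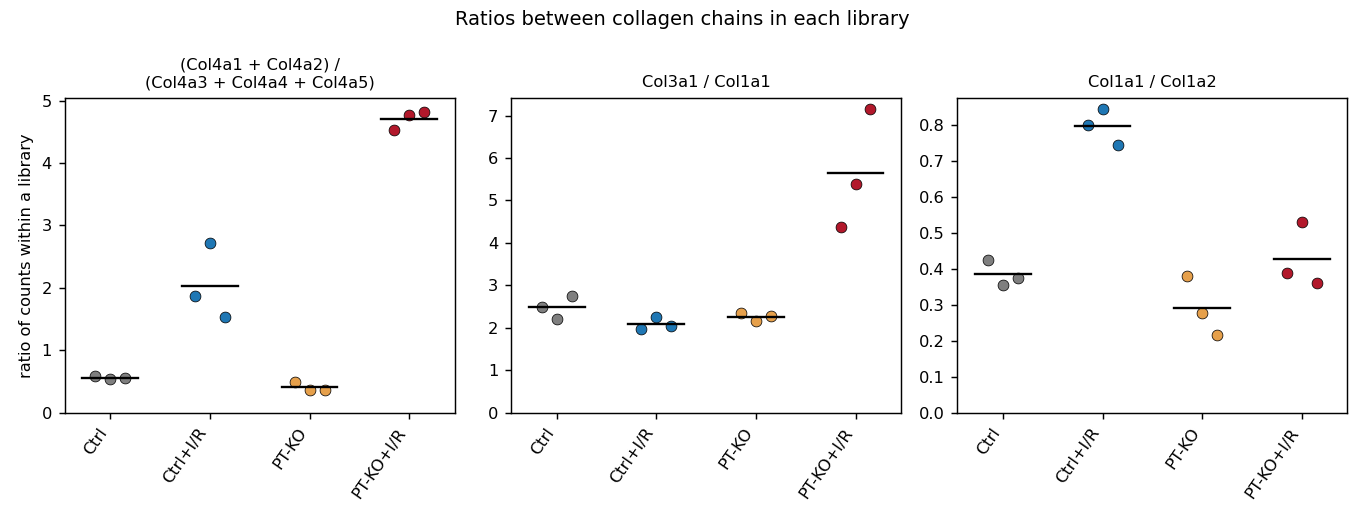
Ratios between counts of collagen chains within each library (linear axes from 0), 3 libraries a group, lines at the mean. The ratio of Col4a1 plus Col4a2 to the glomerular chains averages 4.70 in PT-KO+I/R against 2.04 in Ctrl+I/R and 0.557 in Ctrl, Col3a1 to Col1a1 is highest in PT-KO+I/R, and Col1a1 to Col1a2 is highest in Ctrl+I/R.

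Summed by class, the fibrillar chains took 14.0% to 15.3% of the collagen counts in Ctrl, 22.0% to 29.1% in Ctrl+I/R, 13.1% to 14.4% in PT-KO and 4.97% to 7.77% in PT-KO+I/R. Type IV took 68.6% to 71.4%, 51.7% to 60.6%, 69.1% to 72.4% and 69.7% to 71.2% in the same order. The 27 other genes took 13.8% to 16.4% in Ctrl and 21.02% to 25.4% in PT-KO+I/R. In CPM the fibrillar sum was 273 to 334 in Ctrl, 617 to 758 in Ctrl+I/R, 201 to 318 in PT-KO and 118 to 204 in PT-KO+I/R, so that PT-KO+I/R overlapped with PT-KO and lay below Ctrl+I/R. The type IV sum, 1351 to 1493 CPM in Ctrl and 1623 to 1872 in PT-KO+I/R, spanned 1225 to 1699 CPM in Ctrl+I/R and adds up chains that moved in opposite directions.

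**Figure D5:**
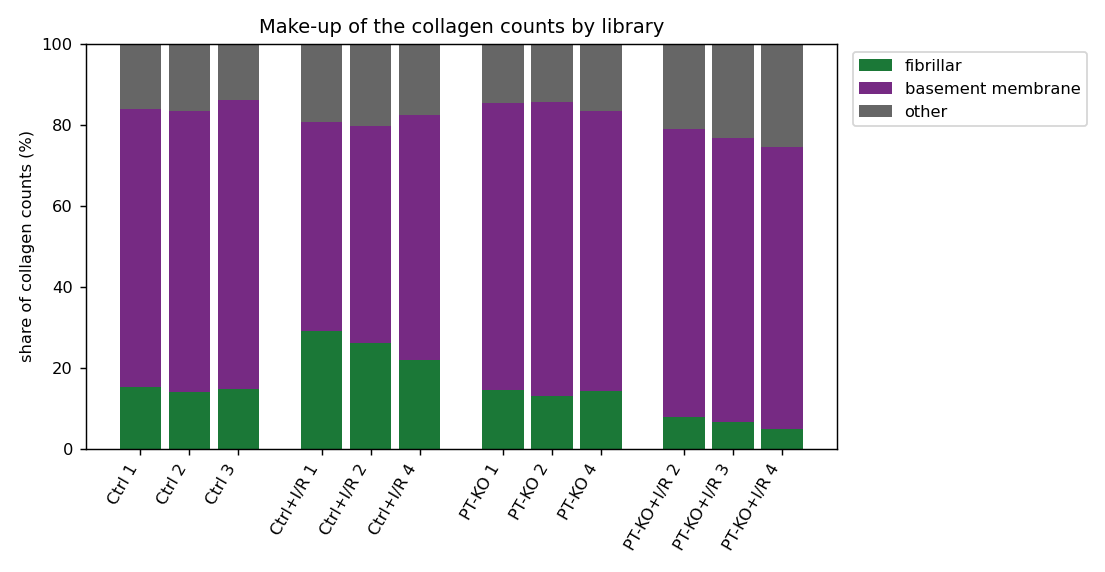
Share of the collagen counts (percent, stacked to 100) taken by fibrillar, basement membrane and other chains in each of the 12 libraries. The fibrillar share is largest in the 3 Ctrl+I/R libraries (22.0% to 29.1%) and smallest in the 3 PT-KO+I/R libraries (4.97% to 7.77%).

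The FACIT chains, which attach to the surface of fibrils, moved in opposite directions. Col12a1 stood at 13.5, 15.8 and 10.97 CPM in Ctrl, 26.8, 29.3 and 35.5 in Ctrl+I/R, against 12.1, 7.81 and 14.6 in PT-KO and 71.5, 94.6 and 92.0 in PT-KO+I/R. Ctrl and PT-KO overlapped, Ctrl+I/R lay above both, and PT-KO+I/R lay above all. It rose 2.28-fold with I/R in Ctrl and 7.48-fold in PT-KO (adjusted p = 0.00849 and 1.3e-06), and the interaction was 1.72 ± 0.29 (adjusted p = 0.00137). Col14a1 stood at 37.8 to 46.4 CPM in Ctrl, 20.5 to 40.4 in Ctrl+I/R, 29.8 to 35.2 in PT-KO and 4.18 to 10.9 in PT-KO+I/R. It fell 4.86-fold with I/R in PT-KO (adjusted p = 4.7e-05), whereas in Ctrl its log2 fold change was -0.45 ± 0.23 (adjusted p = 0.196), and the interaction was -1.81 ± 0.40 (adjusted p = 0.00618).

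Col19a1, a rare FACIT chain, was at 2.39 to 3.98 CPM in PT-KO, 0.30 to 0.72 in Ctrl, 0.10 to 0.19 in Ctrl+I/R and at most 1 count in each PT-KO+I/R library. It was at least 15.4-fold lower in PT-KO+I/R than in PT-KO, with a floor of 3 counts per library. Its log2 fold change between PT-KO and Ctrl was 2.62 ± 0.39 (adjusted p = 0.153), the largest among the members in that comparison, with no overlap between groups. Col16a1 and Col20a1 were called in no comparison by edgeR as reported, and Col16a1 was called for the interaction with sex as a term.

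The beaded filament chains of type VI, which surround cells in the interstitium, were lower in injured PT-KO than in injured Ctrl kidneys in all 3 that were tested there. Col6a3 stood at 24.7, 19.4 and 20.1 CPM in Ctrl, 59.1, 58.6 and 39.6 in Ctrl+I/R, against 15.6, 13.4 and 14.2 in PT-KO and 8.39, 9.26 and 5.22 in PT-KO+I/R. The 4 groups did not overlap. It rose 2.46-fold with I/R in Ctrl (adjusted p = 0.00847) and fell 1.89-fold in PT-KO (adjusted p = 0.00264), was 6.88-fold lower in injured PT-KO than in injured Ctrl kidneys (adjusted p = 0.000248), and had the smallest adjusted p of the members for the interaction (-2.20 ± 0.29, adjusted p = 0.000304). Col6a1 and Col6a2 were lower in injured PT-KO than in injured Ctrl kidneys by log2 -1.57 ± 0.36 and -1.43 ± 0.18 (adjusted p = 0.00931 and 0.000765), and neither was called between PT-KO+I/R and PT-KO. Col6a6 was at 0.50, 0.06 and 6.87 CPM in Ctrl, where the 2 libraries with Xist were the low ones. In Ctrl+I/R, whose libraries are male, it was low as well, at 0.67, 0 and 1.26 CPM. It was at 4.60 to 11.3 CPM in PT-KO and at no more than 3 counts per library in PT-KO+I/R, at least 42.3-fold lower than in PT-KO.

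The multiplexins carry endostatin-type domains, and the 2 genes differed. Col15a1 stood at 28.8, 24.2 and 26.0 CPM in Ctrl, 51.1, 54.6 and 43.6 in Ctrl+I/R, against 27.1, 14.2 and 17.6 in PT-KO and 13.2, 7.92 and 9.29 in PT-KO+I/R. It rose 1.90-fold with I/R in Ctrl (adjusted p = 0.00685), fell 1.97-fold in PT-KO (adjusted p = 0.00699) and was 4.99-fold lower in injured PT-KO than in injured Ctrl kidneys (adjusted p = 0.000215), with an interaction of -1.89 ± 0.32 (adjusted p = 0.00123). Col18a1, the gene of endostatin, stood at 114 to 158 CPM in Ctrl, 206 to 341 in Ctrl+I/R, 95.0 to 143 in PT-KO and 360 to 430 in PT-KO+I/R. It rose 3.43-fold with I/R in PT-KO (adjusted p = 5.8e-06) and 1.84-fold in Ctrl (adjusted p = 0.0317, lost in 4 of 6 fits that left out a library). Its 1.49-fold higher level in injured PT-KO than in injured Ctrl kidneys (adjusted p = 0.0352) was lost in 5 of 6 such fits and under total-count scaling (log2 0.36 ± 0.20, adjusted p = 0.164), and its interaction of 0.91 ± 0.29 (adjusted p = 0.0333) in 7 of 12.

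Among the transmembrane chains, Col13a1 had the largest rise of any member with I/R in PT-KO. It stood at 0.75, 1.35 and 1.44 CPM in Ctrl, 1.47, 1.25 and 0.89 in Ctrl+I/R, against 1.39, 0.75 and 0.67 in PT-KO and 13.5, 7.83 and 12.6 in PT-KO+I/R. The first 3 groups overlapped and the PT-KO+I/R libraries lay above all of them. It rose 11.9-fold with I/R in PT-KO (log2 3.57 ± 0.33, adjusted p = 7.5e-06) and was 9.15-fold higher in injured PT-KO than in injured Ctrl kidneys (adjusted p = 0.000310), and its log2 fold change in Ctrl was 0.05 ± 0.37 (adjusted p = 0.927). The interaction of 3.53 ± 0.51 (adjusted p = 0.000519) was called in all 12 fits that left out a library. Col23a1 fell with I/R in PT-KO (log2 -1.71 ± 0.33, adjusted p = 0.00107), at 2.53 to 3.47 CPM without and 0.60 to 1.16 CPM with it, and Col17a1, at most 2.09 CPM in any library, was lower in injured PT-KO than in injured Ctrl kidneys (log2 -1.92 ± 0.48, adjusted p = 0.0129, lost without PT-KO+I/R library 3 or 4). Of the remaining types, Col26a1 was lower in PT-KO+I/R than in PT-KO and in Ctrl+I/R (log2 -1.42 ± 0.28 and -1.24 ± 0.28), and the anchoring fibril chain Col7a1 and the vascular chain Col8a1 were called in no comparison by edgeR as reported, although Col8a1 was called in Ctrl after I/R with DESeq2, under total-count scaling and with no low-count filter, and with I/R in PT-KO with the replicate block and without PT-KO library 1.

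Promoter sequence was set beside these patterns. RefSeq windows of the 250 bases before the transcript start on GRCm38.p6 were matched for 35 of the 44 members, with 38 starts. The letters GGGCGG, read on both strands, were in 22 of the 38 member windows and in 32.7% of 32851 windows of all genes. CCAAT was in 13 and 33.8%, and TATAAA, the core letters of a TATA box, in 5 and 12.4%. None of the 3 contains another. Letters were counted anywhere in the window, whatever their distance from the start, so a match is not shown to be a working box. Windows of 4 genes are shown for their contrasting levels, each on the strand of its gene, with any of the 3 motifs in capitals on either strand: Col3a1 (chr1:45311288-45311537), Col5a1 (chr2:27886175-27886424) and Col6a3 (chr1:90843972-90844221), which rose with I/R in Ctrl and were lower in injured PT-KO than in injured Ctrl kidneys, and Col13a1 (chr10:61979109-61979358), which rose in PT-KO.
Col3a1: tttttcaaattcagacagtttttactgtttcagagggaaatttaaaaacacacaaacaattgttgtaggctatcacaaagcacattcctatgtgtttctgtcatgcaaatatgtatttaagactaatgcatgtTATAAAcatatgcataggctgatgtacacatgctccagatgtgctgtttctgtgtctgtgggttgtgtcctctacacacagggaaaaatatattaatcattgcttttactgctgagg
Col5a1: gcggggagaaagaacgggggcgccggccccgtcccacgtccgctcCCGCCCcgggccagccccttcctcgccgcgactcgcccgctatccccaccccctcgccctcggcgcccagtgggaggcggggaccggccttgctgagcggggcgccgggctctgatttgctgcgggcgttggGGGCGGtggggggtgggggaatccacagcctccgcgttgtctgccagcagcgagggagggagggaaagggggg
Col6a3: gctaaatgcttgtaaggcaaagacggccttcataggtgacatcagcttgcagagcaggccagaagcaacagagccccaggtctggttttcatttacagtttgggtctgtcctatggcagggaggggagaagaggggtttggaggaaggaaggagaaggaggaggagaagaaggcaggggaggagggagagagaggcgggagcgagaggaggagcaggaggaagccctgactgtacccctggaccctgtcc
Col13a1: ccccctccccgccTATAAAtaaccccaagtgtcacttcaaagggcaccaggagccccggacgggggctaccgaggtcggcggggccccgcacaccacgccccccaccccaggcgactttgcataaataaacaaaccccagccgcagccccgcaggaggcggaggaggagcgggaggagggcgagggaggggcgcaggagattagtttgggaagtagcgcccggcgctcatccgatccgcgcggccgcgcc
Col3a1 and Col13a1 each held TATAAA, Col5a1 held GGGCGG on each strand, and Col6a3 held none of the 3. The 3 genes shown for the first pattern thus share none of these motifs in this window, but that holds only for the genes picked. Among other members with that pattern, Col1a2 and Col5a3 held GGGCGG and CCAAT, Col6a2 held GGGCGG, and Col15a1 held none of the 3.

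Without I/R the collagens of the 2 genotypes were closer. In PT-KO against Ctrl, 22 of the 30 members tested had a negative log2 fold change (median -0.33, all genes -0.01), and edgeR called none. The 9 members with an unadjusted p under 0.05 included Col5a2 (-0.47 ± 0.08), Col6a2 (-0.87 ± 0.16), Col6a3 (-0.58 ± 0.13) and Col6a1 (-0.75 ± 0.18), with adjusted p of 0.183, 0.183, 0.183 and 0.195. These 4 and Col19a1 were the 5 members that DESeq2 called, of 32 to which it gave an adjusted p (15.6%, beside 2.81% of all genes). Without Ctrl library 3, which leaves 2 female Ctrl libraries against 3 male PT-KO libraries, edgeR called 6 of 31 members (19.4%) and 12.4% of all genes.

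Collagen chains need a chain of enzymes before they can assemble. Of 18 genes for synthesis inside the cell, 17 were tested between the I/R groups, and 1 was higher and 7 lower in the knockout (median -0.14). These 8 are 47.1% of the 17, about the share of all genes called there (46.9%). P4ha1, the catalytic subunit of a prolyl 4-hydroxylase, stood at 45.7, 70.8 and 59.5 CPM in Ctrl+I/R and at 25.5, 19.1 and 22.5 CPM in PT-KO+I/R. It was lower by log2 -1.40 there, and its I/R log2 fold change in Ctrl, 0.14, was not called. Serpinh1, the collagen chaperone HSP47, was at 153 to 234 CPM in Ctrl+I/R and 90.1 to 102 CPM in PT-KO+I/R (log2 -0.95). Colgalt2, a collagen galactosyltransferase, and P3h2, a prolyl 3-hydroxylase that acts on type IV collagen, were lower by log2 -1.61 and -1.34. The one gene that was higher was Mia3 (TANGO1, which loads procollagen for export, log2 0.38).

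Outside the cell the procollagen ends are trimmed and the fibres cross-linked. Of 14 such genes, 12 were tested in PT-KO+I/R against PT-KO, where 7 rose and 1 (Pcolce) fell, and 13 in Ctrl+I/R against Ctrl, where 4 rose. These are 66.7% and 30.8% of those tested, beside 65.5% and 19.4% of all genes. Between the I/R groups 1 of 13 was higher and 3 lower in the knockout (median -0.32), 30.8% beside 46.9% of all genes. Lox, lysyl oxidase, stood at 3.44 to 4.22 CPM in Ctrl, 7.46 to 15.6 in Ctrl+I/R, 1.62 to 3.60 in PT-KO and 28 to 37.4 in PT-KO+I/R. Its I/R log2 fold change was 1.48 in Ctrl and 3.73 in PT-KO, with an interaction of 2.26, so the order of the groups was unlike that of Col1a1 and like that of Col12a1. Loxl1, Adamts2 (the procollagen N-proteinase) and Bmp1 (the C-proteinase) also had higher responses in PT-KO, with interactions of 0.97, 1.14 and 1.35. Their levels overlapped between the injured groups, whereas without I/R they were lower in PT-KO than in Ctrl, which mixes sexes. Bmp1 was at 7.81 to 17.6 CPM in Ctrl, 5.46 to 7.13 in PT-KO, 10.9 to 18.1 in Ctrl+I/R and 15.1 to 18.2 in PT-KO+I/R. Without I/R, 12 of the 13 genes tested were negative in PT-KO against Ctrl (median -0.74), and 0 were called. Loxl2 rose with I/R in both genotypes (log2 1.21 and 0.86) and was lower in injured PT-KO than in injured Ctrl kidneys (log2 -1.09).

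Of 10 genes for receptors and uptake of collagen, 9 were tested between the I/R groups, with 1 higher and 4 lower in the knockout, 55.6% beside 46.9% of all genes. Itgb1, the shared beta subunit of the collagen-binding integrins, was the higher one (log2 0.57). Mrc2, the endocytic collagen receptor, was at 20.5 to 25.1 CPM in Ctrl+I/R and 3.38 to 5.31 CPM in PT-KO+I/R (log2 -2.37). Lair1, a collagen receptor of leukocytes, was lower by log2 -3.78, and Ddr2, the fibrillar collagen receptor, by log2 -0.53.

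Between the I/R groups the summed levels of fibroblast and pericyte markers and of myofibroblast and smooth muscle markers overlapped. The summed level of 8 fibroblast and pericyte markers was 224 to 275 CPM in Ctrl, 222 to 257 in Ctrl+I/R, 198 to 254 in PT-KO and 187 to 232 in PT-KO+I/R. Between the I/R groups 1 of the 8 was higher and 3 lower, close to the 46.9% of all genes called. Pdgfrb (log2 -0.42) and Pdgfra (0.25) were not called, and the pericyte marker Cspg4 was at -1.69. The sum joins markers that went opposite ways. Rgs5 was at 46.1 to 69.1 CPM in Ctrl+I/R and 30.6 to 36.6 in PT-KO+I/R. Dpt was also lower there (1.72 to 2.53 and 0.90 to 1.20), whereas Gsn was higher (39.4 to 50.9 and 56.7 to 63.7). The 5 myofibroblast and smooth muscle markers summed to 180 to 272 CPM in Ctrl+I/R and 149 to 245 in PT-KO+I/R, with Acta2 (log2 -0.53) not called and Postn at -1.50 called. The 3 mesangial markers summed to 38.9 to 48.0 and 48.8 to 49.6 CPM in Ctrl+I/R and PT-KO+I/R, but did not move together: Serpine2 was higher in the knockout (log2 0.82), Itga8 lower (-1.22) and Gata3 at -0.47, not called (median -0.47).

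Markers of other cells moved as well. The 6 endothelial markers summed to 324 to 364 CPM in Ctrl+I/R and 432 to 455 in PT-KO+I/R, with 4 higher and 1 lower. That is 83.3% of them, against 33.3% of the podocyte markers and 46.9% of all genes. The 6 podocyte markers summed to 474 to 641 CPM in Ctrl, 372 to 406 in Ctrl+I/R, 392 to 504 in PT-KO and 372 to 428 in PT-KO+I/R, and 0 of them were higher and 2 lower between the I/R groups. The 6 proximal tubule markers summed to 11882 to 12732 CPM in Ctrl, 11423 to 13188 in PT-KO, 3386 to 7848 in Ctrl+I/R and 2115 to 2707 in PT-KO+I/R. Of the 4 macrophage markers, 3 were lower in injured PT-KO than in injured Ctrl kidneys and Cd68 higher (log2 0.76); Adgre1 (F4/80) was at 5.85 CPM or more in Ctrl+I/R and 0.19 to 0.51 in PT-KO+I/R. The 3 markers of the thick ascending limb and distal tubule and the 3 of the collecting duct summed to 1635 to 3958 and 65.0 to 226 CPM in Ctrl+I/R and to 2124 to 2567 and 77.3 to 133 CPM in PT-KO+I/R. The first sum is mostly Umod (log2 -0.10, not called), whereas Slc12a1, at 59.9 to 720 CPM in Ctrl+I/R and 32.7 to 50.7 in PT-KO+I/R (log2 -3.40), and Slc12a3 (log2 -0.63) were lower in the knockout. The part of these cell markers in the collagen differences was not tested.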

How the data were processed

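Total RNA of kidney cortex from 12 mice was sequenced by the authors on an Illumina HiSeq X instrument. HISAT2 2.0.4 and mm10 are named in the submitters' processing notes; the counting program, annotation and strand setting are not given in the sources used here. The deposited table holds raw counts per Ensembl gene, not normalized. Symbols and exon lengths came from GENCODE M21 (GRCm38), which named 55227 of 55487 IDs. Genes passing filterByExpr were tested per comparison with edgeR 4.0.16 (R 4.3.3; TMM, glmQLFit, glmQLFTest) on the 6 libraries compared, and the interaction on all 12, with Benjamini-Hochberg adjustment over all genes tested and a threshold of 0.05. CPM values are TMM-scaled over all 12 libraries. Linear folds against groups at 3 or fewer counts per library are given as bounds; fitted log2 values are not bounds. The fit was tested on simulated counts with 200 changed genes: of 100 changed by log2 1 and 100 by log2 2, it found 53 and 93 between the injured groups, 65 and 89 for I/R within PT-KO, 43 and 88 for I/R within Ctrl, and 24 and 71 for the interaction.

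Alternatives were DESeq2 1.42.0, total-count scaling, no filter, 1 fit to all libraries, a replicate block, sex as a term and leaving out each library. The text names Col1a1, Col1a2, Col3a1, the type IV chains, Col15a1, Col18a1 and up to 10 members with the smallest adjusted p in each comparison; others are named to account for every member. The members and gene lists were chosen with earlier results of these data known. Nothing used here says how the libraries of a group were drawn beyond their labels as separate samples, so p-values measure the spread between these samples.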

Additional observations from a re-analysis of the deposited data

Results flagged for a closer look

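The I/R response, as a log2 fold change, differed between genotypes for 15 members by the interaction term of edgeR's quasi-likelihood test; each value below is the response in PT-KO minus that in Ctrl. Among the fibrillar chains the response was lower in PT-KO for Col1a1 (-2.60), Col1a2 (-2.0), Col5a1 (-1.54), Col5a2 (-0.72) and Col5a3 (-3.22). Of type IV, it was higher for Col4a1 (1.0) and Col4a2 (1.02) and lower for Col4a5 (-1.15). Of the other types, it was higher for Col12a1 (1.72), Col13a1 (3.53) and Col18a1 (0.91) and lower for Col6a3 (-2.20), Col14a1 (-1.81), Col15a1 (-1.89) and Col19a1 (-4.42), the last resting on at most 4 counts in each library of both I/R groups, so that its size depends on the fit and is not a bound. With sex as a term 12 members and 20% of all genes were called, 10 of the 12 among these 15, and Col5a3, Col4a1, Col4a2, Col4a5 and Col18a1 no longer passed.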

How the results depend on the processing

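The replicate numbers of the labels did not pair the libraries: over 12 same-numbered pairs the correlation of deviations from the group means ran from -0.215 to 0.235, with 1 above 0.1. With the replicate block, 12 members in place of 22 were called between the I/R groups and 7 in place of 0 in PT-KO against Ctrl, beside 11% and 9.01% of all genes. In PT-KO against Ctrl, DESeq2 and the fit with no low-count filter each called 5 (2.81% and 1.47% of all genes). In Ctrl+I/R against Ctrl, sex as a covariate left 0 of 16. Leaving out 1 library at a time gave 18 to 20 calls in PT-KO+I/R against PT-KO (58.7% to 65.6% of all genes), 17 to 24 between the I/R groups (31% to 48%), 7 to 18 in Ctrl+I/R against Ctrl (2.39% to 25%; 9 without Ctrl+I/R library 1), 0 to 6 in PT-KO against Ctrl (0% to 12.4%) and 13 to 18 for the interaction (21.7% to 33.2%). The causes were not tested.

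Of the values under alternatives for single members, 1167 kept direction and side of the threshold, 118 lost the call, 49 gained it and 18 changed sign, none of the last a called value. In PT-KO+I/R against PT-KO these were Col1a1, with the replicate block (0.41) and when libraries were left out (-0.49 to 0.50), and Col6a2 when libraries were left out (-0.0733 to 0.11). In Ctrl+I/R against Ctrl they were Col6a6 with the block (0.19) and when libraries were left out (-2.80 to 1.10, the highest without Ctrl library 3), and Col13a1 with sex (-0.25) and when libraries were left out (-0.19 to 0.24). In PT-KO against Ctrl they were Col4a4 under total-count scaling (-0.0273), with sex (-0.0245) and when libraries were left out (-0.0026 to 0.19), Col13a1 with the block (0.0249), Col12a1 and Col5a3 with sex (0.0644 and -0.0102), and Col4a6 (-0.44 to 0.24) and Col4a3 (-0.36 to 0.0013) when libraries were left out. The 12 members not tested in the reported fits had at most 19 counts in any library, and the reason for their low counts was not tested. Of these, Col6a4 was called in PT-KO+I/R against PT-KO with no low-count filter, without PT-KO library 4 and without PT-KO+I/R library 3, and Col6a5 between the I/R groups with DESeq2 and with no low-count filter.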
